A study of Mus musculus with 30 samples.

Results

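Genes that drive the cell cycle and copy DNA were followed across 10 kinds of mouse CD11b+ cells, the myeloid cells that carry the integrin chain Itgam on their surface. The set held 43 genes of the 18194 measured. They were chosen by name as known cyclins, kinases, inhibitors, replication factors and mitotic proteins, and all 43 were found on the array. Where a gene had several probe sets, the one brightest on average over the 30 arrays stood for it, and 31 of the 43 had further probe sets. Levels are log2 expression values from the deposited RMA table, so a difference of 1 is a 2-fold change.

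Each group had 3 arrays. Cells came by magnetic enrichment from the spleens of healthy BALB/c mice, from the spleens of healthy C57BL/6 mice, and from BALB/c mice bearing the colon carcinoma C26-GM, both from the spleen and from the tumor infiltrate. Tumor infiltrates were also taken from BALB/c mice with 4T1, a mammary carcinoma, and from C57BL/6 mice with EL-4, a T cell lymphoma, or MCA203, a fibrosarcoma. Fresh BALB/c bone marrow was the reference for BALB/c marrow cultured for 4 days with GM-CSF and IL-6 or with GM-CSF and G-CSF. Healthy spleen was the study's only reference for infiltrates, so tumor and organ cannot be told apart in those comparisons. The labels used here give no age, sex or pooling, and do not say that replicates came from separate animals, so p-values measure only the spread between these samples. The source label of the C57BL/6 spleen arrays names BALB/c, while title and strain name C57BL/6. The class II gene H2-Ea, which C57BL/6 mice do not express, followed the titles, with 6.2 to 7.3 on the 9 C57BL/6 arrays and at least 9.36 on the others.

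Cells enter the cycle when D cyclins, held with Cdk4, and cyclin E with Cdk2 inactivate the retinoblastoma family and free E2F factors. E2F then raises the genes that license origins, unwind DNA and supply nucleotides in S phase, and a later wave, led by Foxm1 and the MuvB complex, raises the genes of mitosis. In the myeloid lineage, progenitors and promyelocytes of the marrow divide, while mature neutrophils and most blood monocytes do not. Cdkn1a and Cdkn2c encode inhibitors of cyclin-dependent kinases that hold cells before S phase.

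Itgam lay between 9.15 and 11.61 on all 30 arrays and Ptprc, the leukocyte marker CD45, between 11.53 and 13.17, so both were present in every group, and no unenriched sample was set beside them. Genes of other lineages were present too. In BALB/c and C57BL/6 healthy spleen the mean level of 6 B cell genes was 7.92 to 8.18 and 8.65 to 8.89. Correlations between arrays of 1 group ran from 0.941 to 0.995. Of the cultures, 4 arrays had a narrow spread of values, with interquartile ranges from 2.54 to 2.60. They were GM-CSF+IL-6 arrays 1 and 2 and GM-CSF+G-CSF arrays 1 and 3. The 3 C26-GM spleen arrays also stood apart from each other, and C26-GM tumor array 3 had an actin 3′ less 5′ difference of 2.42, a sign of RNA degradation, against 0.01 to 0.68 on the others. The female-expressed RNA Xist was at 5.15 to 6.47 on the 6 C26-GM arrays and at 10.06 to 11.12 on the other 24, so the comparisons of a C26-GM group with any other group also cross that difference.

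Promoters of many cell cycle genes carry short elements that tie them to a phase of the cycle. A few promoters of the set are shown so that the elements counted below can be seen in place. RefSeq start sites on GRCm38.p6 were matched for 33 of the 43 genes. No entry was matched for Ccnd1, Ccnd2, Ccne2, Mcm4, Gmnn, Ccna2, Foxm1, Aurkb, Kif20a and Tpx2. Windows of 300 bases, 250 before the start and 50 after it, were searched on both strands for TTTGAA, the CHR element bound by MuvB, for TTTGGCGC or TTTCGCGC, an E2F site, and for CCAAT, the NF-Y site. Matches of different motifs may share bases, and a gene with several starts counted once if any of them held a match. Below, capitals mark the matches, and each stretch is written 5′ to 3′ on the strand of the gene and ends at the base before the start.
Cdk1 chr10:69352913-69353062, minus strand: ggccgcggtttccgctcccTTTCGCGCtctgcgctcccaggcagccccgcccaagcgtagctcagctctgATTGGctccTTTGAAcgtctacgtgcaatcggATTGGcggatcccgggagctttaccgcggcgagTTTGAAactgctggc
Top2a chr11:99024190-99024389, minus strand: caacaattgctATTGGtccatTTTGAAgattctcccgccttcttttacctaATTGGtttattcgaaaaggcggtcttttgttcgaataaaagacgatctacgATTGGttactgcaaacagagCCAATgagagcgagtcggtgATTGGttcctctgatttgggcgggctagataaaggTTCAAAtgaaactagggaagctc
Cdc20 chr4:118437344-118437423, minus strand: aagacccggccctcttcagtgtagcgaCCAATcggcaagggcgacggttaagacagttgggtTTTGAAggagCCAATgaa
Kif11 chr19:37376302-37376381, plus strand: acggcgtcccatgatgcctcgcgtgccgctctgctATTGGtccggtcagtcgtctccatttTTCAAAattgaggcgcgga
Mcm5 chr8:75109339-75109508, plus strand: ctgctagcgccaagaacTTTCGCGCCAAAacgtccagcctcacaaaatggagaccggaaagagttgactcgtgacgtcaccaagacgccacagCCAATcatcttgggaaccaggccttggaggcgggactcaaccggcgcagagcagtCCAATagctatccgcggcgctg
Mcm6 chr1:128359706-128359835, minus strand: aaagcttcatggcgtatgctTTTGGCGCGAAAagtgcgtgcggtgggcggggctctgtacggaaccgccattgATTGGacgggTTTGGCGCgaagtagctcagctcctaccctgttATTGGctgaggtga
Cdkn1a chr17:29090879-29090978, plus strand: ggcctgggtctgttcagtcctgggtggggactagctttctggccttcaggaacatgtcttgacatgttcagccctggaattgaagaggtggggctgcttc

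The CHR element stood in the windows of 6 of 6 matched genes of mitotic entry, of 5 of 8 spindle and checkpoint genes and of 2 of 8 licensing genes, and in no window of the G1 and nucleotide groups. Among all 27018 genes of the table, 20.2% held it. Of a further list of mitotic genes, 21 of 31 (67.7%) held it, of further replication genes 3 of 18 (16.7%) and of further G1 regulators 6 of 19 (31.6%). In Cdk1, the mitotic kinase, it lies 71 and 15 bases before the start, and in Cdc20, the activator of the anaphase ubiquitin ligase, 18 bases before it. The E2F site was in 4 of 8 licensing genes (Mcm3, Mcm5, Mcm6 and Mcm7) and in Cdk1, against 0.929% of all genes. In the further lists it was in 33.3% of replication genes, 3.23% of mitotic genes and 21.1% of G1 regulators. CCAAT was in 25 of 33 (75.8%) against 41.1%. In the further lists CCAAT was in 44.4% of replication genes, 64.5% of mitotic genes and 63.2% of G1 regulators. The stretch of Cdkn1a is shown because that gene moved differently from the others, and it holds none of these letters. That is not particular to Cdkn1a. The windows of Tk1, Birc5, Cdc6, Tyms, E2f1, Ccne1 and Cdk4 held no match either, and Tk1 and Birc5 rose in marrow and MCA203 tumor (below). A match describes letters only, and no binding was measured.

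Fresh marrow had the highest group mean for 30 of the 43 genes, MCA203 infiltrate for 8, GM-CSF+IL-6 culture for 2, and 4T1 infiltrate, C26-GM infiltrate and C57BL/6 spleen for 1 each. The lowest mean was in BALB/c spleen for 21 genes, in C26-GM infiltrate for 15, in EL-4 infiltrate for 3, in fresh marrow for 2, and in 4T1 infiltrate and C57BL/6 spleen for 1 each. The 2 genes lowest in marrow were Ccnd1 and Ccnd2.

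**Figure D1:**
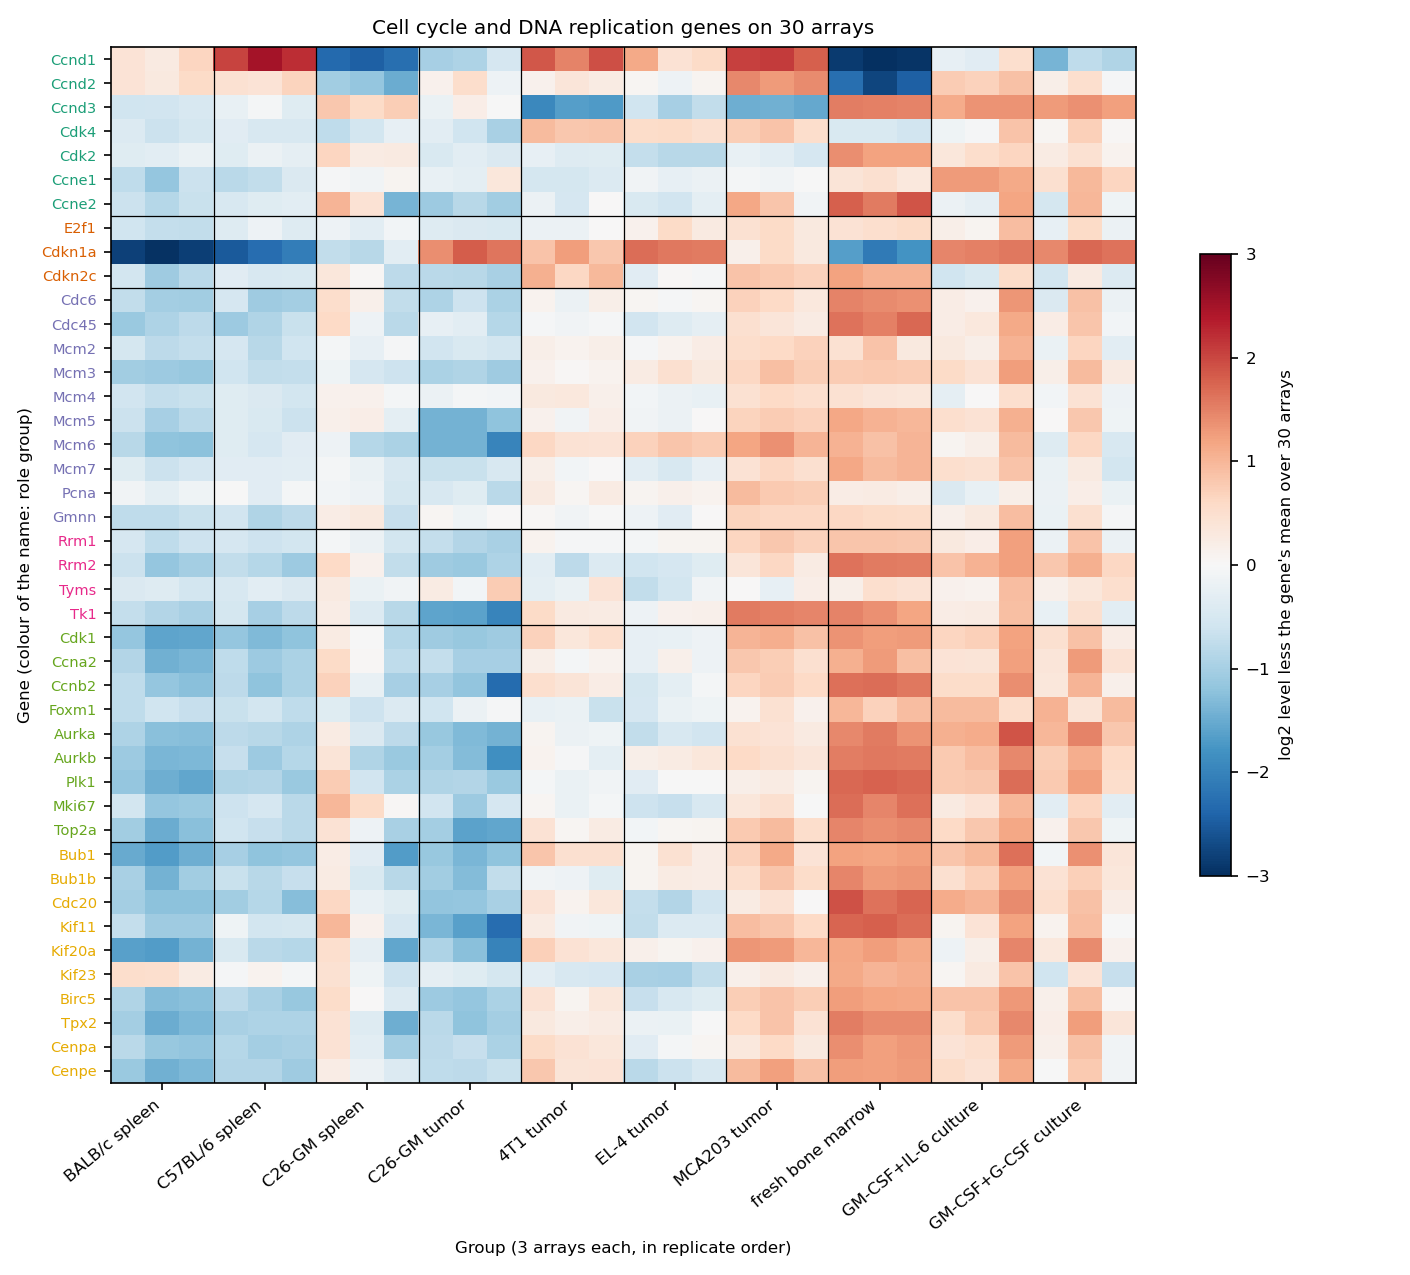
Each row is a gene and each column 1 of the 30 arrays, with colour for the log2 level less the gene's mean over all arrays; lines divide the groups and the role groups. Most rows are red in fresh marrow and blue in BALB/c spleen and C26-GM tumor, while Ccnd1, Ccnd2 and Cdkn1a are blue in fresh marrow.

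The D cyclins, which start the cycle in answer to growth factors, took opposite sides. Ccnd1 was at 8.77, 8.64 and 9.0 in BALB/c spleen, at 10.38, 10.85 and 10.59 in C57BL/6 spleen and at 5.49, 5.38 and 5.41 in fresh marrow. In the C26-GM model it was at 6.02, 5.91 and 6.09 in the spleen and at 7.36, 7.43 and 7.86 in the tumor. The other infiltrates held 10.24, 9.85 and 10.29 (4T1), 9.50, 8.79 and 8.93 (EL-4) and 10.41, 10.46 and 10.15 (MCA203). Marrow and C26-GM spleen were thus the 2 lowest groups and did not overlap with any other. Against BALB/c spleen, the log2 change of Ccnd1 was -3.37 ± 0.21 (standard error, as in all changes below) in marrow, -2.79 ± 0.21 in C26-GM spleen, -1.25 ± 0.21 in C26-GM tumor and 1.32 ± 0.21 in 4T1 tumor. All passed the test, with adjusted p (limma, Benjamini-Hochberg over all genes) from 3.3e-12 to 5.4e-05, and a gene is called risen or fallen here at adjusted p below 0.05 and at least 2-fold. Against C57BL/6 spleen it fell by 1.53 ± 0.21 in EL-4 tumor and its change in MCA203 tumor was -0.26 ± 0.21 (adjusted p = 0.42).

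Ccnd2 showed the same low groups. It was at 9.27, 9.13 and 9.41 in BALB/c spleen, at 7.81, 7.68 and 7.37 in C26-GM spleen and at 6.57, 6.10 and 6.40 in marrow. The 3 groups did not overlap, and the log2 changes were -1.65 ± 0.17 in C26-GM spleen and -2.91 ± 0.17 in marrow. MCA203 tumor held the most, 10.29, 10.13 and 10.27, which was 0.88 ± 0.17 above C57BL/6 spleen and short of the 2-fold limit. Ccnd3, the third D cyclin, ran the other way. It was at 9.12, 9.15 and 9.25 in BALB/c spleen, at 11.27, 11.24 and 11.21 in marrow and at 7.79, 8.08 and 8.02 in 4T1 tumor, and it rose by 2.07 ± 0.13 in marrow and by 1.25 ± 0.13 in C26-GM spleen. It changed by -1.21 ± 0.13 in 4T1 tumor and by -1.26 ± 0.13 in MCA203 tumor. A dimmer Ccnd3 probe set opposed the rises, with -1.66 ± 0.33 in marrow and -0.80 ± 0.33 in C26-GM spleen, and the mean of all its probe sets gave 0.50 and 0.22 there, neither of them called. The direction of Ccnd3 in those comparisons therefore depended on the probe set.

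Of the kinases and E cyclins of G1, against healthy spleen, Cdk4 was called in 2 infiltrates and the others in marrow. Cdk4, the partner of the D cyclins, was at 8.12, 7.89 and 8.0 in BALB/c spleen and at 9.50, 9.34 and 9.37 in 4T1 tumor. It rose by 1.40 ± 0.21 in 4T1 and by 1.14 ± 0.21 in MCA203 tumor, and its change in marrow was 0.04 ± 0.21 (adjusted p = 0.91). Cdk2, the partner of cyclin E, rose in marrow by 1.56 ± 0.13, Ccne1 by 1.25 ± 0.16 and Ccne2 by 2.48 ± 0.43. In none of the tumor-bearing groups was any of the 3 called against spleen.

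Cdkn1a had the largest change of all 43 genes in each of the 5 comparisons of tumor-bearing groups with healthy spleen, apart from C26-GM spleen, where the fall of Ccnd1 was larger. It was at 6.71, 6.54 and 6.69 in BALB/c spleen, at 8.76, 8.69 and 9.19 in C26-GM spleen and at 10.91, 11.34 and 11.11 in C26-GM tumor. It was at 10.36, 10.76 and 10.31 in 4T1 tumor, at 11.18, 11.10 and 11.06 in EL-4 tumor and at 9.66, 10.08 and 9.82 in MCA203 tumor, against 6.99, 7.22 and 7.45 in C57BL/6 spleen. No array of these groups overlapped with its healthy spleen. The rises were 2.24 ± 0.17 in C26-GM spleen, 4.47 ± 0.17 in C26-GM tumor, 3.83 ± 0.17 in 4T1, 3.89 ± 0.17 in EL-4 and 2.63 ± 0.17 in MCA203 tumor, with adjusted p at most 1.6e-10. In fresh marrow, at 7.85, 7.40 and 7.73, the rise was 1.01 ± 0.17, and the mean of its probe sets put it at 0.95, short of 2-fold.

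Cdkn2c, an inhibitor of Cdk4 and Cdk6, had its highest level in marrow. It was at 7.55, 7.05 and 7.29 in BALB/c spleen and at 9.31, 9.14 and 9.14 in marrow, and rose by 1.90 ± 0.26. It rose by 1.70 ± 0.26 in 4T1 tumor and by 1.21 ± 0.26 in MCA203 tumor, and its change in C26-GM tumor was -0.06 ± 0.26 (adjusted p = 0.89). E2f1, the transcription factor that D cyclins release, rose by 1.18 ± 0.19 in marrow and was not called in any tumor-bearing group.

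**Figure D2:**
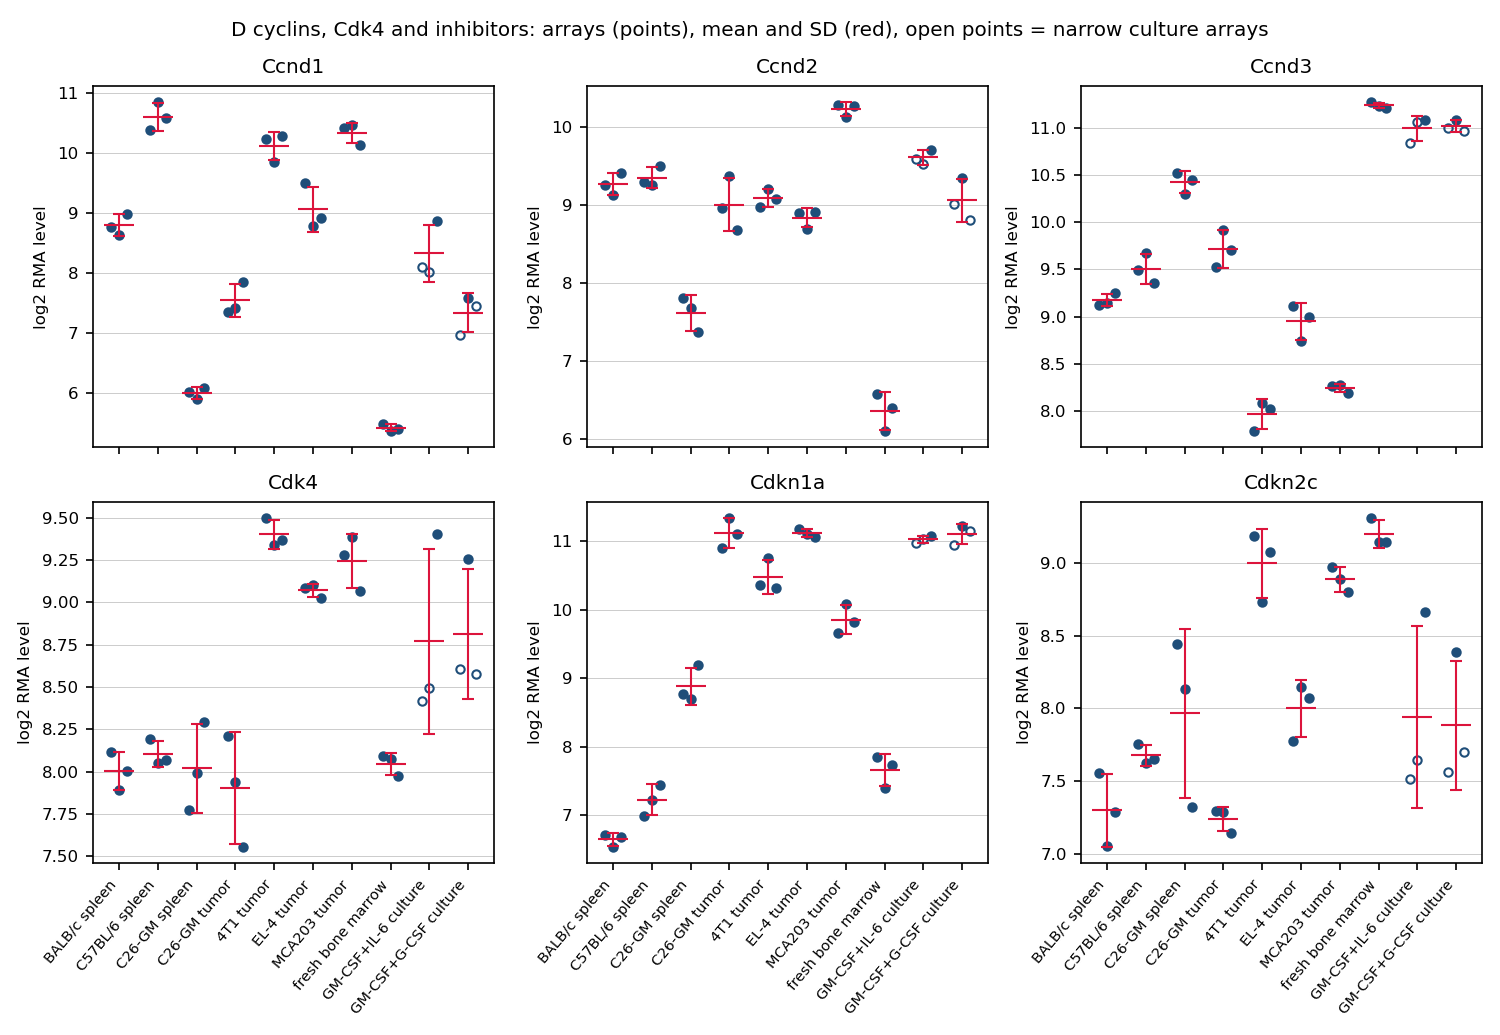
Log2 RMA levels on each array (points) with the mean and SD of 3 arrays (red) for the D cyclins, Cdk4 and the inhibitors in the 10 groups; open points are the 4 narrow culture arrays. Ccnd1 and Ccnd2 are lowest in fresh marrow, Ccnd3 is highest there, and Cdkn1a lies between 8.69 and 11.34 in all tumor-bearing groups and between 6.54 and 7.45 in healthy spleen.

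Most of these genes were higher in fresh marrow than in healthy BALB/c spleen. Of the 43 genes 37 rose, against 5.76% of all genes, and 2 fell, against 7.49%. The median change was 2.21 for the set and 0.09 for all genes. By role, 9 of 10 licensing and fork genes rose, 3 of 4 nucleotide genes, 9 of 9 genes of mitotic entry and 9 of 10 spindle and checkpoint genes. Those that did not pass both limits were Pcna (0.39 ± 0.16), Tyms (0.82 ± 0.23), Kif23 (0.66 ± 0.24) and Cdk4.

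Plk1, the kinase that drives centrosome maturation and exit from mitosis, led with 3.13 ± 0.28. Mki67, the gene of the Ki-67 proliferation antigen, was at 9.19, 8.59 and 8.62 in BALB/c spleen and at 11.42, 11.22 and 11.39 in marrow. Cdk1 was at 7.05, 6.63 and 6.66 in spleen and at 9.55, 9.47 and 9.48 in marrow. Both separated the groups with no overlap, by 2.54 ± 0.25 and 2.72 ± 0.20. Cdc20 rose by 2.92 ± 0.20, the chromosome passenger kinase Aurkb by 2.82 ± 0.26, the checkpoint kinase Bub1 by 2.76 ± 0.33, the cytokinesis motor Kif20a by 2.75 ± 0.39 and the spindle assembly factor Tpx2 by 2.74 ± 0.30.

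The genes of S phase rose too. Rrm2, the small subunit of ribonucleotide reductase, was at 8.44, 7.92 and 8.06 in spleen and at 10.71, 10.65 and 10.63 in marrow, a rise of 2.52 ± 0.22. Mcm5, a subunit of the replicative helicase, was at 8.53, 8.18 and 8.37 in spleen and at 10.35, 10.23 and 10.17 in marrow, a rise of 1.89 ± 0.19. In neither gene did the groups overlap. Cdc45, which joins that helicase at the fork, rose by 2.56 ± 0.26 and the salvage kinase Tk1 by 2.21 ± 0.23. Median changes were 1.70 for the licensing group and 2.70 for mitotic entry, each set beside 0.09 for all genes.

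Genes of the same pathways outside the set were counted in the same way. Of 33 further mitotic genes 32 rose, led by the kinetochore gene Nuf2 (3.21 ± 0.36), the passenger subunit Cdca8 (3.09 ± 0.21) and the microtubule depolymerase Kif2c (3.06 ± 0.29). Of 21 further replication genes 15 rose, among them Uhrf1 (3.10 ± 0.27), which maintains DNA methylation behind the fork, DNA ligase Lig1 (2.35 ± 0.21) and the origin kinase Cdc7 (2.33 ± 0.28). Of 21 further G1 regulators 8 rose, such as the repressors E2f8 (3.03 ± 0.31) and E2f7 (2.97 ± 0.24), and Skp2, which targets the inhibitor Cdkn1b for decay, fell (-1.43 ± 0.26). Markers of early granulocytes moved with them: 6 of 9 primary granule and progenitor genes rose and 1 fell, and their mean level was 9.86 to 9.90 in marrow and 6.36 to 6.75 in spleen. Lymphoid genes were lower in marrow: 5 of 5 NK cell genes and 5 of 6 B cell genes fell, and 3 of 8 T cell genes fell and 1 rose. The part of any of these cells in the result was not tested. In bulk samples more dividing cells and more RNA per cell cannot be told apart, and this holds for all results here.

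**Figure D3:**
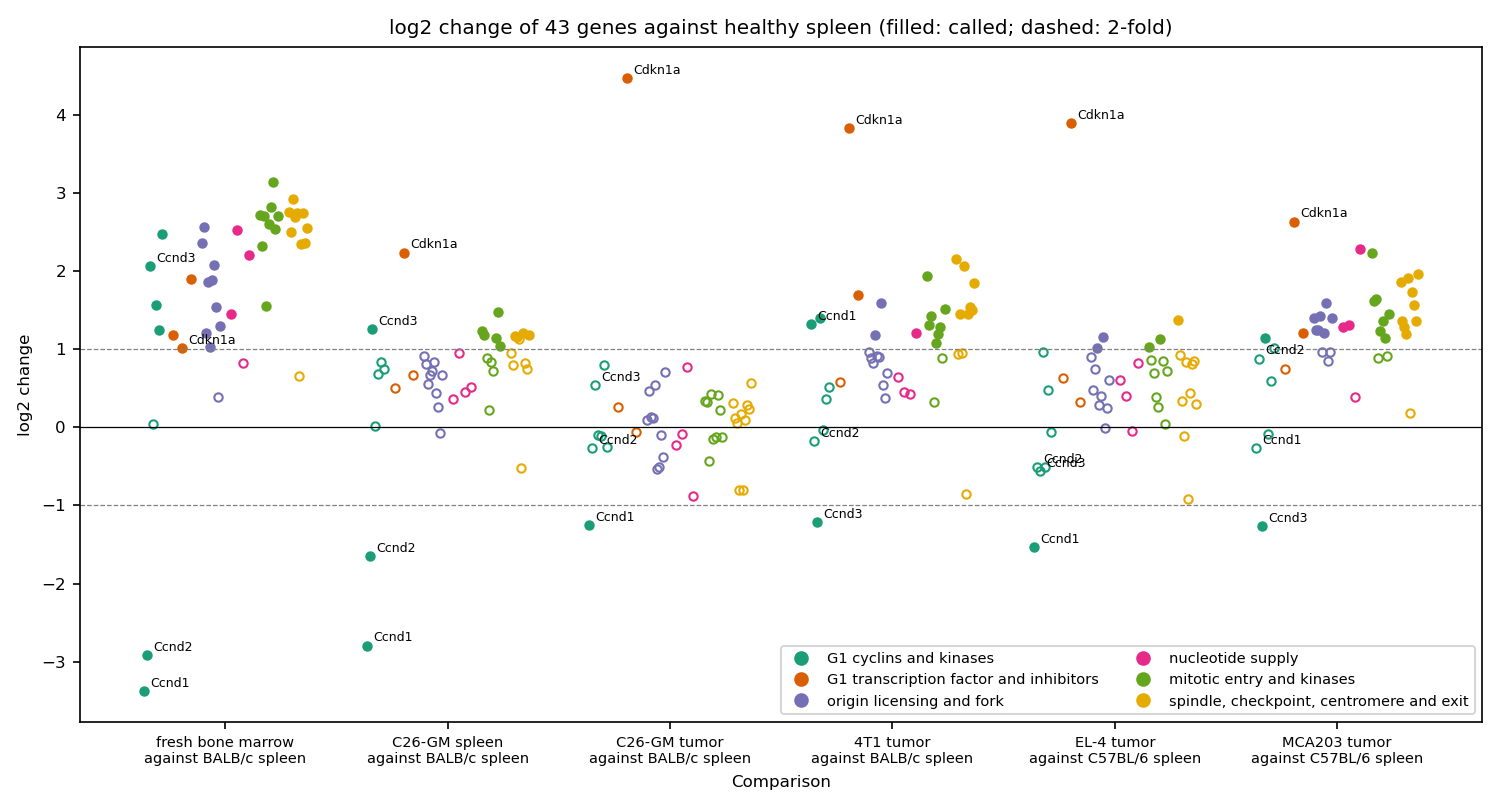
Log2 change of each of the 43 genes against healthy spleen of the same strain in 6 comparisons, coloured by role; filled points were called and dashed lines mark 2-fold. In C26-GM tumor only Cdkn1a and Ccnd1 are filled, while in marrow, 4T1 and MCA203 tumor 7 to 9 of the 9 genes of mitotic entry and 7 to 9 of the 10 spindle genes are filled above 1.

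The 2 healthy spleens were close. Between C57BL/6 and BALB/c 1 of the 43 genes was called, Ccnd1, higher in C57BL/6 by 1.80 ± 0.21 (adjusted p = 2.8e-06), against 0.654% of all genes that were higher. The other probe sets of Ccnd1 gave 1.92 and 1.62. The groups did not overlap. By limma none was lower, against 0.742% of all genes, and at an unadjusted p under 0.05 also 0 were lower and 7 higher. All genes were not counted at the unadjusted limit, so the 7 have no share to be set against. Of the other genes followed throughout, Cdkn1a differed by 0.58 ± 0.17 (adjusted p = 0.067), and Mki67, Cdk1, Mcm5, Rrm2, Ccnd2, Ccnd3 and Cdkn2c by 0.06 to 0.38, none of them called.

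In the spleen of C26-GM bearing mice 11 genes rose, against 2.32% of all genes, and 2 fell, Ccnd1 and Ccnd2, against 3.83%. The median change was 0.80 for the set and 0.09 for all genes. The risers were mitotic apart from Cdkn1a and Ccnd3: 5 of 9 genes of mitotic entry and 4 of 10 spindle genes, and none of the licensing or nucleotide genes. Mki67 was at 10.73, 10.32 and 9.78, above the 8.59 to 9.19 of healthy spleen, and rose by 1.48 ± 0.25. Cdk1 was at 8.46, 8.20 and 7.37 and rose by 1.23 ± 0.20. Birc5, the passenger protein survivin, rose by 1.20 ± 0.21 and the kinetochore motor Cenpe by 1.19 ± 0.21. Ccna2, Cdc20, Kif11, Plk1 and Top2a rose by 1.04 to 1.18. Mcm5 (0.83 ± 0.19, adjusted p = 0.0031) and Rrm2 (0.95 ± 0.22, adjusted p = 0.0029) passed the test and not the 2-fold limit, and the change of Cdkn2c was 0.67 ± 0.26 (adjusted p = 0.087). Rrm2 was called at 1.13 with the mean of all its probe sets and at 1.42 without probe sets open to cross-hybridisation. With array weights it was called at 1.125. The absence of a nucleotide gene among the risers thus depended on the probe set and the weighting.

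The 3 spleens of these mice differed among themselves. The median of the 43 genes, each centred on its mean over all arrays, was 0.25, -0.19 and -0.69 on arrays 1, 2 and 3. The mean level of 9 primary granule and progenitor genes was 8.44, 7.89 and 7.49 in the same order, and the actin 3′ less 5′ difference 0.17, 0.41 and 0.66. Bub1, at 7.50, 6.95 and 5.62, spanned the range and reached into the 5.61 to 5.83 of healthy spleen. Without array 3 of both C26-GM spleen and C26-GM tumor 23 genes rose and 2 fell, and the added risers included Rrm2 (1.31 ± 0.19), Cdc6 (1.27 ± 0.30) and Bub1 (1.49 ± 0.29). Without spleen array 1, 7 genes were called and 25 without array 3. With arrays weighted by how well they fitted their group, 20 genes were called. Of the 9 granule and progenitor markers 5 rose and 2 fell. Lymphoid genes were lower than in healthy spleen: 5 of 5 NK cell genes fell, with a mean level of 4.52 to 4.92 against 7.46 and above, and so did 5 of 6 B cell genes, with 5.72 to 5.99, and 4 of 8 T cell genes. The part of such cells or of RNA quality in the result was not tested.

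Of further genes, 16 of 33 mitotic genes rose, among them Kif2c (1.98 ± 0.29), Nuf2 (1.5 ± 0.36) and the abscission gene Cep55 (1.49 ± 0.30), and 1 of 21 replication genes, Uhrf1 (1.62 ± 0.27). Of the G1 regulators E2f7 (1.36 ± 0.24) and the E2F partner Tfdp1 (1.07 ± 0.22) rose and Skp2 fell (-1.26 ± 0.26). Set against fresh marrow, 30 of the 43 genes were lower in C26-GM spleen, against 4.96% of all genes, and 2 were higher, Ccnd2 and Cdkn1a, against 5.27%. Aurkb was the most reduced, at -2.10 ± 0.26, then Plk1 at -1.99 ± 0.28 and Tpx2 at -1.92 ± 0.30. All 9 genes of mitotic entry and all 10 spindle genes were lower, and 6 of 10 licensing genes. Of the genes followed throughout, Rrm2 (-1.58 ± 0.22), Cdk1 (-1.49 ± 0.20), Cdkn2c (-1.23 ± 0.26), Mcm5 (-1.06 ± 0.19) and Mki67 (-1.06 ± 0.25) were lower, with Ccnb2 at -1.82 ± 0.32. Ccnd2 was higher by 1.26 ± 0.17 and Cdkn1a by 1.22 ± 0.17, while Ccnd3 (-0.81 ± 0.13) and Ccnd1 (0.58 ± 0.21) were not called. The mean of all probe sets put Cdkn1a at 0.70 and Mcm5 at -0.97, both short of 2-fold. Without array 3 of both C26-GM groups 22 were lower and 2 higher. Ccna2, Mki67, Mcm5, Cdkn2c, Kif23, Birc5 and Rrm1, at -0.78 to -0.94, and Ccne2 (-1.02, limma adjusted p = 0.065) were then no longer called. Of the 9 granule and progenitor markers 7 fell.

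In the infiltrate of C26-GM tumors 2 genes of the set were called. Against BALB/c spleen 1 gene rose, Cdkn1a, against 4.26% of all genes, and 1 fell, Ccnd1, against 7.13%. The median was 0.10, beside 0.11 for all genes. Mki67 was at 9.17, 8.66 and 9.24 and overlapped with healthy spleen (0.22 ± 0.25, adjusted p = 0.53). Cdk1 was at 7.14, 7.08 and 7.15, just above the spleen (0.34 ± 0.20, adjusted p = 0.23). Mcm5 was at 7.75, 7.77 and 7.97, below every spleen array (-0.53 ± 0.19, adjusted p = 0.042), and Tk1, at 5.95, 5.92 and 5.55 against 6.83, 6.66 and 6.57, lay lower too (-0.88 ± 0.23, adjusted p = 0.0042), both short of 2-fold. Ccnd3 changed by 0.54 ± 0.13, Ccnd2 by -0.26 ± 0.17 and Rrm2 by -0.09 ± 0.22, none of them called. NK cell genes fell in 5 of 5 cases and B cell genes in 5 of 6, and 5 of the 9 granule and progenitor markers fell. Of 33 further mitotic genes 1 rose, Kif2c (1.06 ± 0.29), and of 21 replication genes none. Of the G1 regulators Cdk6 rose (1.51 ± 0.20) and 3 fell, Skp2 (-2.76 ± 0.26), E2f2 (-1.71 ± 0.25) and the pocket protein Rbl2 (-1.48 ± 0.32).

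Compared within the same mouse model, the tumor infiltrate lay below the spleen for 9 genes, against 3.36% of all genes, and above it for 3, against 2.79%. The 3 were Cdkn1a (2.24 ± 0.17), Ccnd1 (1.54 ± 0.21) and Ccnd2 (1.39 ± 0.17). The lower genes were Kif11, a spindle motor (-1.97 ± 0.30), Tk1 (-1.39 ± 0.23), Mcm5 (-1.36 ± 0.19), the mitotic cyclin Ccnb2 (-1.32 ± 0.32), Mki67 (-1.25 ± 0.25), Rrm2 (-1.04 ± 0.22), Top2a, Cdc20 and Birc5. Cdk1 (-0.89 ± 0.20), Cdkn2c (-0.72 ± 0.26) and Ccnd3 (-0.71 ± 0.13) were not called. Kif11 was at 7.54, 6.68 and 6.06 in the spleen and at 5.18, 4.92 and 4.28 in the tumor, with no overlap. Primary granule and progenitor genes moved the same way: 6 of 9 fell and 1 rose, with a mean level of 5.52 to 5.77 in the tumor and 7.49 to 8.44 in the spleen, and their part in the result was not tested. With only these 2 groups in the fit Ccnb2 and Rrm2 lost their calls (adjusted p = 0.125 and 0.074), and without spleen array 1 they changed by -0.89 and -0.74. Ccnb2 was also lost without tumor array 3 (-0.91), and Rrm2 with housekeeping centring (-0.86). Without array 3 of both C26-GM groups 18 genes were lower and 3 higher, and over the omissions of single arrays the total called ran from 7 to 24.

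In 4T1 infiltrate 21 genes rose, against 6.83% of all genes, and 1 fell, Ccnd3, against 5.44%. The median was 0.97, beside -0.01 for all genes. Mitotic genes made up 14 of the risers, 7 of 9 of entry and 7 of 10 of the spindle. Only 2 of 10 licensing genes and 1 of 4 nucleotide genes rose. Bub1, at 8.12, 7.77 and 7.78 against 5.77, 5.61 and 5.83 in spleen, rose by 2.15 ± 0.33. Kif20a rose by 2.07 ± 0.39, Cdk1, at 8.90, 8.54 and 8.72, by 1.94 ± 0.20, and Cenpe by 1.84 ± 0.21. Mcm6, a helicase subunit, was at 9.55, 9.37 and 9.35 against 8.10, 7.71 and 7.69 and rose by 1.59 ± 0.24. No array of these genes overlapped with the spleen. Mki67 (0.88 ± 0.25), Mcm5 (0.90 ± 0.19) and Rrm2 (0.45 ± 0.22, adjusted p = 0.15) were not called, nor was Ccnd2 (-0.18 ± 0.17). Without probe sets open to cross-hybridisation Mcm5 was called in 4T1 tumor, at 1.05.

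Of the further genes, 21 of 33 mitotic genes rose, led by the cytokinetic scaffold Anln (2.33 ± 0.37), and 12 of 21 replication genes, led by the chromatin remodeller Hells (1.82 ± 0.33) and the GINS subunit Gins2 (1.64 ± 0.16). Of the G1 regulators E2f7 rose (1.05 ± 0.24), and E2f2 (-1.47 ± 0.25), Cdkn1b (-1.19 ± 0.31) and Rbl2 (-1.16 ± 0.32) fell. Genes of epithelial cells moved with this group: 6 of 7 rose, with a mean level from 8.26 to 8.71 against 4.82 to 4.86 in spleen, and Krt18, a keratin, was at 10.56 to 11.29. Fibroblast genes rose in 5 of 7 cases, and NK cell genes fell in 5 of 5 and B cell genes in 5 of 6. Whether tumor, stromal or lymphoid cells in the preparation took part in the rises was not tested. In a comparison of the BALB/c infiltrates, 20 genes were higher in 4T1 than in C26-GM, against 8.95% of all genes, and 1 lower, Ccnd3, against 3.9%. The largest differences were Ccnd1 (2.58 ± 0.21), Mcm6 (2.10 ± 0.24), Tk1 (2.09 ± 0.23), Kif20a (1.89 ± 0.39), Ccnb2 (1.86 ± 0.32) and Bub1 (1.83 ± 0.33). Cdkn2c (1.76 ± 0.26), Cdk1 (1.60 ± 0.20) and Mcm5 (1.43 ± 0.19) were higher as well and Ccnd3 was at -1.75 ± 0.13. Mki67 (0.66 ± 0.25), Rrm2 (0.54 ± 0.22), Ccnd2 (0.08 ± 0.17) and Cdkn1a (-0.64 ± 0.17) were not called. Epithelial and fibroblast genes were higher in 5 of 7 cases each. The 2 comparisons of these infiltrates with spleen share the spleen arrays.

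MCA203 infiltrate had the most risers among the tumor-bearing groups. Against C57BL/6 spleen 29 genes rose, against 5.01% of all genes, and 1 fell, Ccnd3, against 5.42%. The median was 1.25, beside 0.14 for all genes. By role, 7 of 10 licensing genes, 3 of 4 nucleotide genes, 7 of 9 genes of mitotic entry and 9 of 10 spindle genes rose. Tk1 was at 9.09, 9.05 and 9.02 against 7.01, 6.55 and 6.75 and rose by 2.28 ± 0.23. Cdk1 was at 9.23, 9.31 and 9.09 against 7.05, 6.88 and 6.99 and rose by 2.24 ± 0.20. Neither overlapped. Cenpe (1.96 ± 0.21), Kif20a (1.91 ± 0.39), Bub1 (1.86 ± 0.33), Birc5 (1.74 ± 0.21), Mcm6 (1.59 ± 0.24), Rrm2 (1.31 ± 0.22) and Mcm5 (1.20 ± 0.19) rose too, and Mki67 missed 2-fold (0.92 ± 0.25). Further replication genes rose in 15 of 21 cases, among them Gins2 (2.18 ± 0.16), the primase Prim1 (1.68 ± 0.25) and the polymerase Pole (1.66 ± 0.18). Further mitotic genes rose in 24 of 33, among them Anln (1.98 ± 0.37), the checkpoint kinase Ttk (1.91 ± 0.28) and the condensin Ncapg (1.91 ± 0.40). Of the G1 regulators E2f7 (1.46 ± 0.24) and E2f8 (1.0 ± 0.31) rose, and Ccng2 (-1.05 ± 0.27) and E2f2 (-1.02 ± 0.25) fell. Genes of other cells moved with this group. Fibroblast genes rose in 5 of 7 cases, with a mean level of 6.10 to 6.96 against 4.29 to 4.46 in spleen. NK cell genes rose in 1 of 5, with 7.89 to 8.68 against 7.01 to 7.34, and B cell genes fell in 5 of 6. The part of these cells in the rises was not tested.

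In EL-4 infiltrate few genes of the set were called beside Cdkn1a. Against C57BL/6 spleen 6 genes rose, against 6.42% of all genes, and 1 fell, Ccnd1, against 4.4%. The median was 0.48, beside 0.02 for all genes. The risers were Cdkn1a, Bub1 (1.38 ± 0.33), Mcm6 (1.16 ± 0.24), Aurkb (1.13 ± 0.26), Cdk1 (1.03 ± 0.20) and Mcm3 (1.02 ± 0.19). Mcm6 was at 9.62, 9.77 and 9.70 against 8.57, 8.44 and 8.60. Cdk1 was at 7.95, 7.99 and 8.06 against 7.05, 6.88 and 6.99. Both were separate from the spleen, while Mki67, at 9.12, 9.05 and 9.25 against 9.12, 9.24 and 8.93, overlapped with it (0.04 ± 0.25, adjusted p = 0.94). The mean of all probe sets put Bub1, Mcm6 and Mcm3 below 2-fold, at 0.92, 0.95 and 0.73, and Ccnd3 past it, at -1.41. Centring on housekeeping genes put Cdk1 and Mcm3 below 2-fold, at 0.91 and 0.90. Ccnd3 (-0.56 ± 0.13), Ccnd2 (-0.51 ± 0.17), Mcm5 (0.40 ± 0.19), Rrm2 (0.40 ± 0.22) and Cdkn2c (0.32 ± 0.26) were not called. Without probe sets open to cross-hybridisation Mcm5 was called in EL-4 tumor, at 1.01. Further replication genes rose in 6 of 21 cases, among them Gins2 (1.5 ± 0.16), Hells (1.45 ± 0.33) and the dUTP hydrolase Dut (1.26 ± 0.28). Further mitotic genes rose in 2 of 33, Nek2 (1.11 ± 0.31) and Cep55 (1.04 ± 0.30). The inhibitor Cdkn1c rose by 2.46 ± 0.19, and Cdkn2d (-1.19 ± 0.25) and E2f2 (-1.16 ± 0.25) fell.

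Set against each other, EL-4 infiltrate was lower than MCA203 for 8 genes, against 1.4% of all genes, and higher for 1, Cdkn1a (1.26 ± 0.17), against 3.88%. The 8 were Cenpe (-1.66 ± 0.21), Tk1 (-1.46 ± 0.23), Ccnd2 (-1.39 ± 0.17), Kif11 (-1.30 ± 0.30), Birc5 (-1.29 ± 0.21), Ccnd1 (-1.27 ± 0.21), Cdk1 (-1.21 ± 0.20) and the midzone motor Kif23 (-1.10 ± 0.24). Mki67 (-0.87 ± 0.25), Rrm2 (-0.90 ± 0.22), Cdkn2c (-0.89 ± 0.26), Mcm5 (-0.80 ± 0.19) and Ccnd3 (0.71 ± 0.13) passed the test and not the 2-fold limit. When arrays were centred on housekeeping genes, 16 were lower and 1 higher. The mean of all probe sets put Cdkn1a at 0.90 and Kif11 at -0.99 (limma adjusted p = 0.07), neither of them called. Markers of T cells were high in both: 7 of 8 rose in EL-4 and 6 of 8 in MCA203, with mean levels from 8.0 to 8.29 and from 7.79 to 8.25, against 5.64 to 5.85 in spleen. Cd3e was at 7.57 to 7.88 in EL-4 and 7.61 to 8.03 in MCA203. Epithelial genes rose in 6 of 7 cases in EL-4, where array 1 had a mean level of 9.55 and the others 6.22 and 7.14, and in 3 of 7 in MCA203. Fibroblast genes rose in 6 of 7 and NK cell genes in 3 of 5 cases in EL-4. The part of these cells in the cell cycle results was not tested.

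A test of the mean change in the C57BL/6 infiltrates less that in the BALB/c infiltrates called 1 of the 43 genes, Tk1, larger in C57BL/6 by 1.39 ± 0.28 (adjusted p = 0.0012), against 2.83% of all genes. That count is near the share of all genes, so it is not particular to the set. By limma none was smaller, against 2.11% of all genes, and 3 were at an unadjusted p under 0.05, a limit at which all genes were not counted. Tk1, the thymidine salvage kinase, rose by 2.28 ± 0.23 in MCA203, changed by 0.82 ± 0.23 in EL-4, rose by 1.21 ± 0.23 in 4T1 and changed by -0.88 ± 0.23 in C26-GM tumor. Cdkn1a (-0.89 ± 0.20), Ccnd1 (-0.93 ± 0.26) and Ccnd3 (-0.58 ± 0.16) passed the test and not the 2-fold limit, and Mki67, Cdk1, Mcm5, Rrm2, Ccnd2 and Cdkn2c differed by -0.07 to 0.68 and were not called. Strain and tumor line cannot be told apart in it.

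**Figure D4:**
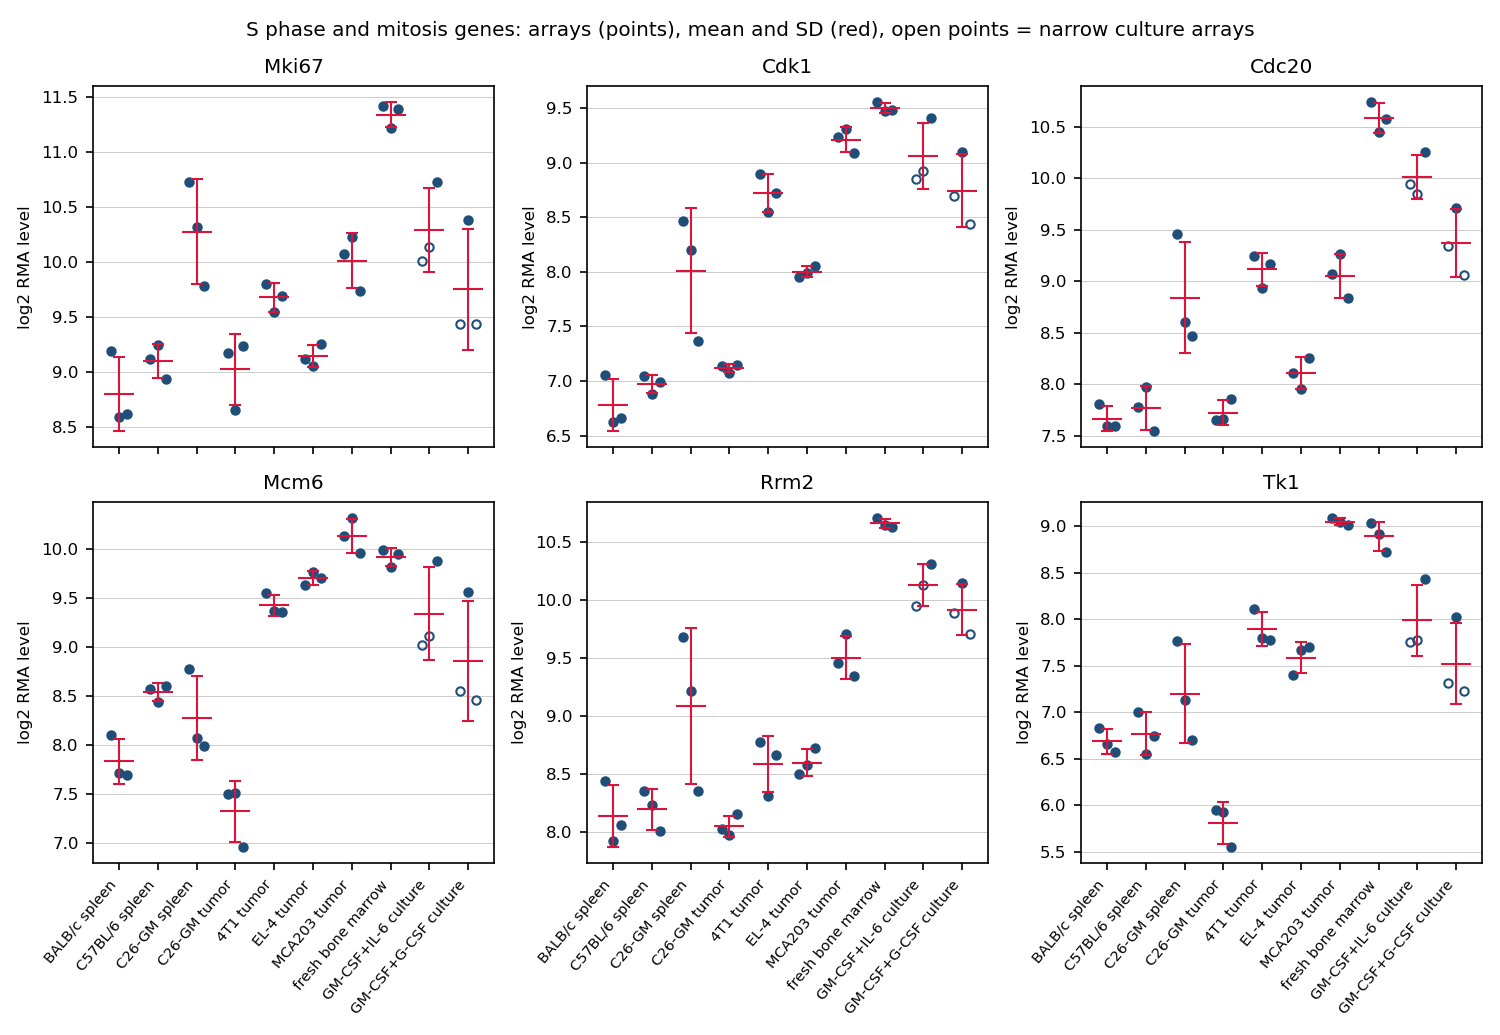
Log2 RMA levels on each array (points) with the mean and SD of 3 arrays (red) for 6 genes of S phase and mitosis in the 10 groups; open points are the 4 narrow culture arrays. Tk1 is lowest in C26-GM tumor, at 5.55 to 5.95, Mki67 is highest in fresh marrow, at 11.22 to 11.42, and the wide culture arrays lie above the narrow ones.

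Both cytokine cultures showed higher levels of Ccnd1 and Ccnd2, which were low in fresh marrow, and of Cdkn1a. Ccnd1 was at 8.11, 8.02 and 8.87 with GM-CSF+IL-6 and at 6.97, 7.60 and 7.46 with GM-CSF+G-CSF, and rose by 2.91 ± 0.21 and 1.92 ± 0.21. Ccnd2 was at 9.60, 9.52 and 9.71 and at 9.02, 9.35 and 8.81, and rose by 3.26 ± 0.17 and 2.70 ± 0.17. Cdkn1a was at 10.97, 11.03 and 11.08 and at 10.94, 11.22 and 11.15, and rose by 3.37 ± 0.17 and 3.44 ± 0.17. None of these arrays overlapped with marrow. Ccnd3 was not called in either culture, with changes of -0.25 ± 0.13 and -0.22 ± 0.13 (adjusted p = 0.14 and 0.17).

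Those 3 were the only risers with either cocktail, against 5% of all genes with IL-6 and 4.48% with G-CSF. With IL-6 5 genes fell, against 9.07% of all genes: Ccne2 (-1.5 ± 0.43), Cdkn2c (-1.26 ± 0.26), Kif11 (-1.18 ± 0.30), Cdc45 (-1.06 ± 0.26) and Mki67 (-1.05 ± 0.25). The count of falls with IL-6 is near the share of all genes, so it is not particular to the set. With G-CSF 16 fell, against 9.37%, led by Ccne2 (-1.63 ± 0.43), Mki67 (-1.59 ± 0.25), Kif11 (-1.40 ± 0.30) and Kif23 (-1.37 ± 0.24). Medians were -0.44 and -0.76, beside 0.12 and 0.14 for all genes. By role the G-CSF falls were 4 of 10 licensing genes, 1 of 4 nucleotide genes, 3 of 9 genes of mitotic entry and 5 of 10 spindle genes, with Ccne2, Cdk2 and Cdkn2c (-1.31 ± 0.26). The other probe set of Cdc45 gave 0.05 ± 0.14 with IL-6 and the mean of its probe sets -0.51, short of 2-fold, so its fall rested on 1 probe set. Primary granule and progenitor genes fell in 7 of 9 cases and rose in 1 with each cocktail, and their part in the falls was not tested. Mcm5 (-0.41 ± 0.19 and -0.83 ± 0.19), Rrm2 (-0.53 ± 0.22 and -0.75 ± 0.22) and Cdk1 (-0.44 ± 0.20 and -0.76 ± 0.20) were not called.

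The falls were larger on the narrow arrays. Mki67 was at 10.01 and 10.14 on the narrow and 10.73 on the wide IL-6 array, and at 9.43 and 9.43 on the narrow and 10.38 on the wide G-CSF array, against 11.22 to 11.42 in marrow. The centred median of the 43 genes was 0.41, 0.43 and 1.17 in the IL-6 and 0.15, 0.84 and -0.02 in the G-CSF culture in replicate order, against 1.15 to 1.21 in marrow. With a term for the narrow arrays, 4 genes rose and none fell with IL-6, against 8.2% and 4.46% of all genes. With G-CSF 4 rose and 1 fell, Mki67 (-1.06 ± 0.23), against 7.66% and 4.75%. The shares of risers were thus near those of all genes. With the wide arrays alone, 1 per cocktail, Mki67 changed by -0.61 with IL-6 and by -0.96 with G-CSF. The fourth riser was Cdk4, at 1.26 ± 0.17 and 1.30 ± 0.17 with the term. Ccnd1, Ccnd2 and Cdkn1a were called in all of these settings, and the reason for the narrow spread was not tested.

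**Figure D5:**
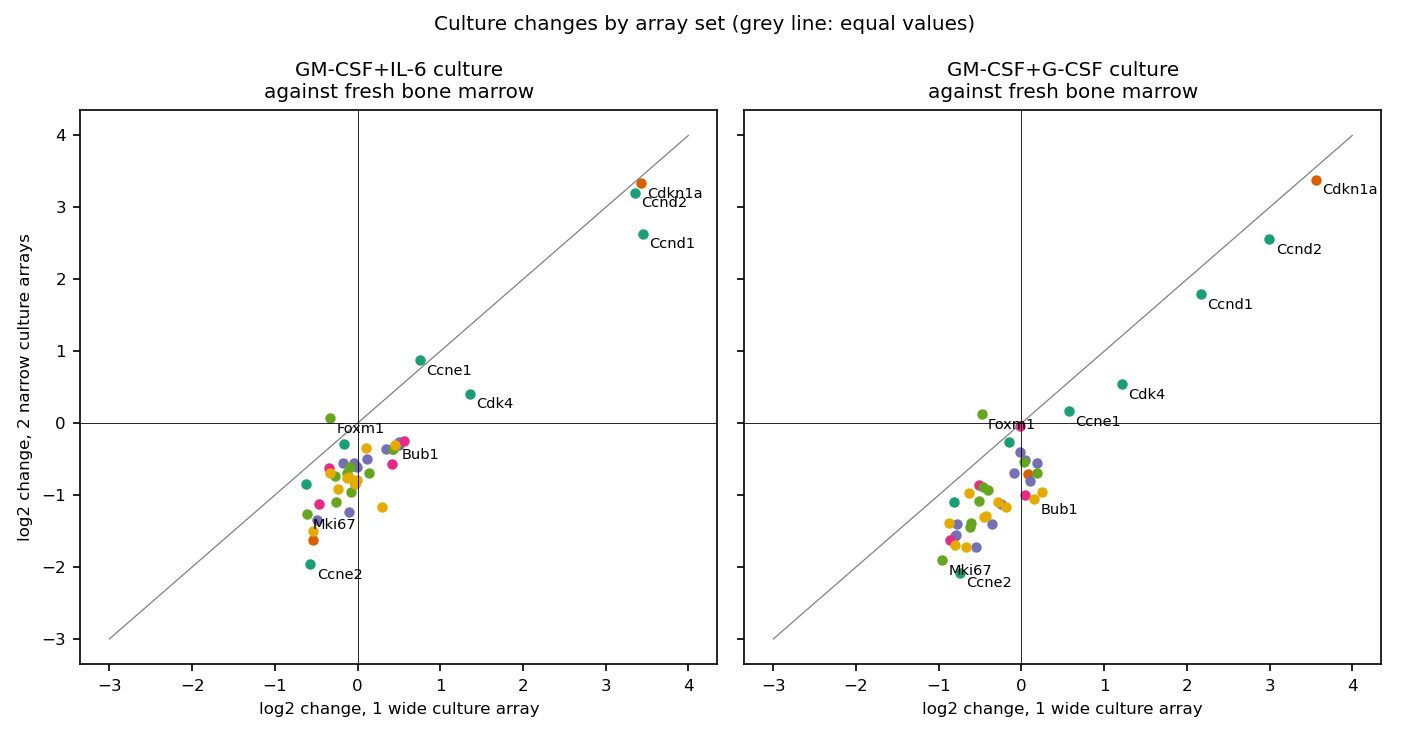
Log2 change of the 43 genes against fresh marrow on the narrow (vertical) and the wide (horizontal) culture arrays, for both cocktails, with colours for role as in the plot of changes by role and a grey line of equal values. Ccnd1, Ccnd2 and Cdkn1a lie far above 0 on both axes, while most other genes lie below the grey line.

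Further genes of the pathway were counted with the narrow arrays included. Mitotic genes fell in 7 of 33 cases with IL-6, such as Ttk (-1.38 ± 0.28), and 24 of 33 with G-CSF, such as the condensin Smc4 (-2.27 ± 0.30). Replication genes fell in 2 of 21 cases with IL-6, a share near the 9.07% of all genes, and in 5 of 21 with G-CSF, with Cdc7 in both (-1.72 ± 0.28 and -2.00 ± 0.28). Among G1 regulators Ccng1, a cyclin induced by p53, rose by 1.71 ± 0.18 and 1.99 ± 0.18. Cdkn2b rose with IL-6 (1.10 ± 0.18). The antiproliferative gene Btg2 fell (-3.07 ± 0.28 and -2.80 ± 0.28), and so did Cdkn1b (-2.43 ± 0.31 and -2.36 ± 0.31). Between the 2 cocktails no gene of the set was called (limma, adjusted p with at least 2-fold), against 0.456% of all genes higher and 0.198% lower with IL-6. At an unadjusted p under 0.05, 13 were higher with IL-6 and 0 lower. The share of all genes at that limit was not counted, so these counts cannot be read as particular to the set. At adjusted p alone 2 passed, Ccnd1 (0.99 ± 0.21, adjusted p = 0.014) and Mcm7 (0.77 ± 0.16, adjusted p = 0.012), both higher with IL-6. The differences of Ccnd2, Mki67, Mcm5, Cdk1, Rrm2, Cdkn2c, Ccnd3 and Cdkn1a ran from -0.08 to 0.55, none of them called.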

How the data were processed

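CD11b+ cells of 10 groups were profiled on 30 Affymetrix arrays, 3 per group. The authors deposited log2 expression values made with RMA, per the submitters' processing notes. No source used here gives its version. Of 45101 probe sets, 34958 carried 1 gene symbol, 932 several and 9211 none. The probe set with the highest mean represented each of 18194 genes. All arrays entered 1 limma model (R 4.3.3, limma 3.58.1), which was tested on simulated data, with Benjamini-Hochberg adjustment over all genes in each of 15 comparisons. A gene was called at adjusted p below 0.05 and at least 2-fold. Changes are given ± standard error. The members, gene lists and tests were chosen with earlier results of these data known, and the lists come from general knowledge. Every member is accounted for, and those named per comparison are up to 6 largest called rises, 4 largest falls and 9 genes named throughout. From each further list up to 3 called genes are named per comparison, and other probe sets of a gene so named where they opposed it by over 0.5. Replicate numbers were not taken to pair the samples. The number of arrays, 3 per group, limits the precision, as do the array and probe set differences given in the text. Promoters and figures used Python 3.11.15 and matplotlib 3.10.9. Scanner files were not used here.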

Additional observations from a re-analysis of the deposited data

Results flagged for a closer look

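The change of Tk1 in the C57BL/6 infiltrates less that in the BALB/c infiltrates was 1.39 ± 0.28 (limma, adjusted p = 0.0012), by a test of the difference itself. The direction and the call were the same under the other settings run for it and in every omission of a single array, with values from 1.24 to 1.51. Tk1 was 1 gene of 43, a count near the 2.83% of all genes called larger in C57BL/6. Strain and tumor line cannot be told apart in this test.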

How the results depend on the processing

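Counts below are of the 43 genes called. Without a minimum fold change they were 24 for C26-GM spleen, 12 for C26-GM tumor, 35 for 4T1 and 23 for EL-4 against healthy spleen. Of all 18194 genes, 1249 rose and 1378 fell at that limit in C26-GM spleen, and 2309 and 2706 in C26-GM tumor. In 4T1 2583 rose and 2030 fell, and in EL-4 2771 and 1806. The share of the set in C26-GM tumor was thus near that of all genes. Counts of the set were 22 for C26-GM tumor against its spleen, 32 for 4T1 against C26-GM tumor and 25 for EL-4 against MCA203. Of all genes 1024 rose and 1556 fell in the first of these, 3546 and 2601 in the second and 1590 and 1141 in the third. Against marrow 19 of the set were called with IL-6 and 29 with G-CSF. With IL-6 3665 of all genes rose and 3456 fell, a share near that of the set, and with G-CSF 3756 and 3471. Between cultures 2 were called, and of all genes 150 rose and 76 fell. For the C57BL/6 less BALB/c infiltrate change 4 were called, and of all genes 852 and 576. Leaving out array 3 of both C26-GM groups gave 25 for C26-GM spleen, in place of 13, and 21 for C26-GM tumor against its spleen, in place of 12. Centring on 8 housekeeping genes gave 17 for EL-4 against MCA203 and 3 for the C57BL/6 less BALB/c infiltrate change. Renewed quantile normalisation gave 11 for the G-CSF culture, in place of 19, and 2 for the C57BL/6 less BALB/c infiltrate change. With a term for the narrow culture arrays, which was chosen after seeing the data, the cultures gave 4 (IL-6) and 5 (G-CSF). Omitting those arrays leaves 1 array per culture, assumed to vary like the other groups, so no count is given for it. Omitting single arrays gave 7 to 25 for C26-GM spleen (7 without its array 1, 25 without its array 3), 7 to 24 for C26-GM tumor against its spleen (the same arrays), 4 to 12 for the IL-6 culture (4 without its array 1, 5 without its array 2), 0 to 2 between cultures (2 without G-CSF array 2, and 1 without IL-6 array 1 or 2 or G-CSF array 3) and 1 to 3 for the C57BL/6 less BALB/c infiltrate change (3 without C57BL/6 spleen array 1, and 2 without BALB/c spleen array 3, 4T1 array 2 or EL-4 array 1). The highest count for the IL-6 culture was 12. Array weights gave 20 for C26-GM spleen. They were estimated gene by gene, chosen after seeing the data because the default REML estimate stopped before it converged, and that estimate gave 18. The other counts stayed within 1.5 times under the alternatives run, among them single-comparison fits, a filter on dim genes (12971 left) and omission of probe sets open to cross-hybridisation (17904 left).

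Housekeeping centring moved the median of all genes by 0.16 for C26-GM tumor, -0.12 for EL-4, 0.18 for C26-GM tumor against its spleen, -0.11 for C26-GM spleen against marrow, -0.12 for 4T1 against C26-GM tumor, -0.14 for EL-4 against MCA203 and -0.15 for the C57BL/6 less BALB/c infiltrate change. The share of all called genes that rose went with it from 37.4% to 49.4% (C26-GM tumor), 59.3% to 48.6% (EL-4), 45.4% to 60.9% (C26-GM tumor against its spleen), 69.7% to 59.3% (4T1 against C26-GM tumor), 73.5% to 55.2% (EL-4 against MCA203) and 57.3% to 42.9% (C57BL/6 less BALB/c infiltrates). Quantile normalisation moved it from 35.5% to 47.2% and from 32.4% to 43.1% for the IL-6 and G-CSF cultures and from 69.7% to 87.5% between them. Between the cultures only 7 of all genes then rose and 1 fell, in place of 83 and 36, so the 87.5% rests on few calls.

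Of the 3101 values of named genes under the alternatives, 2969 stayed called or stayed uncalled, 71 lost the call and 61 gained it. With a call in either fit, 0 changed direction. Changes of direction with no call in either fit were not counted. A replicate block changed no call among the 176 named results, and replicate numbers were not taken as pairs. Deviations from the group means of arrays of the same number correlated from -0.85 to 0.79 over the comparisons. Both extremes were between the 2 cultures. The value was 0.79 for number 1, narrow in both cultures. It was -0.85 and -0.80 for numbers 2 and 3, each narrow in 1 culture and wide in the other. For C26-GM tumor and spleen these correlations ran from 0.06 to 0.47, and for MCA203 tumor and its spleen from 0.09 to 0.17. Whether such arrays share a source was not tested. The cause of the shifts between settings was not tested. Signal near background limits Tyms, at 3.34 to 5.01, more than the other genes.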
